A study of Rattus norvegicus with 4 samples.

Results

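Heat shock proteins (the HSPA, HSP90, HSPB, HSPD, HSPE and HSPH families) and their DnaJ partners are the main folding machinery of the cell, and their transcripts were followed here in rat cortical neurons after knockdown of Cmtr1, which encodes the methyltransferase that modifies the first transcribed nucleotide next to the mRNA cap. The members were all genes on the array whose name begins with Hsp or Dnaj followed by a family letter or number, provided that the scanner flagged a probe as clearly brighter than background on 2 or more of the 4 arrays. Each gene was represented by its brightest probe. Of 72 such gene names on the array 69 were kept, out of 30364 genes kept in all. Dnajb7, Dnajc5b and Dnajc5g were below background on all 4 arrays. All 69 chosen probes were well above background on all 4 arrays, so no member entered through the group in which it was brighter. The set includes 2 Hspd1 pseudogenes, and Hspb11 is named Ift25 in RefSeq.

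Primary cortical neurons of both sexes were prepared from Sprague Dawley rat embryos at E18.5. They were infected at day 2 in vitro with a lentivirus carrying an shRNA against Cmtr1 (shCM1, 2 arrays) or a control shRNA (shCTL, 2 arrays), and total RNA was taken at day 7 and read on single-colour Agilent arrays. The series design speaks of 2 independent experiments without saying whether different litters were used, so p-values speak only for these arrays. Both groups carry a lentivirus and an shRNA; the shRNA sequences are not given in the sources used here, so lower CMTR1 and any off-target effect of the hairpin cannot be told apart. Sample titles use the prefix si where the shRNA field uses sh, and groups follow the shRNA field. Replicate 1 of both groups lay on slide 1 and replicate 2 of both on slide 2, each scanned together, so each slide holds 1 shCM1 and 1 shCTL array.

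HSP70 proteins bind exposed stretches of unfolded proteins and release them in a cycle driven by ATP. DnaJ proteins (HSP40) deliver clients and trigger ATP hydrolysis, and nucleotide exchange factors such as the HSP110 proteins reset the cycle. Each compartment has its own set: HSPA8 and the inducible HSPA1A and HSPA1B in the cytosol, HSPA5 (BiP) in the endoplasmic reticulum, and HSPA9 with the HSPD1-HSPE1 chaperonin in mitochondria. In neurons, HSPA8 also works with the DnaJ proteins auxilin (DNAJC6) and cysteine string protein (DNAJC5) in the synaptic vesicle cycle. Cytosolic chaperone genes are classical targets of heat shock factors, which bind inverted repeats of a short unit, and endoplasmic reticulum chaperone genes are classical targets of the unfolded protein response, whose factors bind an element joining CCAAT and CCACG.

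The promoter stretches of 5 members are shown because their genes are described below and hold these elements, in capitals with 20 flanking bases on each side. The sequences are RefSeq promoters of build GRCr8, read 5′ to 3′ on the gene's own strand. The elements of the first 3 join CCAAT, any 9 bases and CCACG, on either strand, and those of the other 2 are 3 or more inverted units in a row.
Hspa5, chr3:38452953-38453011, plus strand: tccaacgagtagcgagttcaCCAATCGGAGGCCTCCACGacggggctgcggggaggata
Hsp90b1, chr7:23012327-23012489, minus strand: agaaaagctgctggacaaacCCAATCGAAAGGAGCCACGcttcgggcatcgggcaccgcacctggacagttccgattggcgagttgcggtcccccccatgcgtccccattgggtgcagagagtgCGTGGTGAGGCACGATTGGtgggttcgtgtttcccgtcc
Dnajc3, chr15:102432514-102432572, plus strand: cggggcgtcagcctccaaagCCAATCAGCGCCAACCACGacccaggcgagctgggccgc
Hsph1, chr12:10427312-10427364, plus strand: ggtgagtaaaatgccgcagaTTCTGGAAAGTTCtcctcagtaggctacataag
Hspe1, chr9:64084242-64084299, plus strand: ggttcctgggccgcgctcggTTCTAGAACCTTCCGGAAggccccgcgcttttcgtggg

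The target was lower in both shCM1 arrays. Cmtr1 stood at −3.46 and −3.53 in shCM1 neurons, against −1.43 and −1.86 in shCTL neurons, where a level is the log2 of the processed signal minus the 75th percentile of its array, so that 0 is that percentile. The groups did not overlap, and shCM1 kept 27.7% of the shCTL signal (difference −1.85 log2 units, −2.04 within slide 1 and −1.67 within slide 2). Limma gave an adjusted p of 1.6e-07 with the slide as a block and 1.00 without it. Of 41012 gene probes, 87.13 and 90.38% were well above background in shCM1 arrays 1 and 2, against 83.97 and 89.01% in shCTL arrays 1 and 2, and the 75th percentile of signal was 596 and 744 in shCM1 arrays, against 652 and 755 in shCTL arrays. RNA markers of other cells also differed. The summed linear level of 13 microglial markers was 4.46 and 3.43 times the 75th percentile in shCM1 arrays, against 2.91 and 2.58 in shCTL arrays. Of these 13, 12 were higher within both slides (92.3%, against 44% of all genes). With the slide block 6 passed the threshold as higher (46.2%, against 3.66%). The sum over 12 neuronal markers, carried mainly by the brightest, Stmn2 and Tubb3, was 269 and 200 in shCM1 arrays, against 287 and 220 in shCTL arrays. Of the 12 neuronal markers 2 passed as higher with the slide block, Gad1 (0.52) and Gad2 (0.53), and 1 as lower, Tubb3 (−0.37). Within both slides 2 were higher (16.7%, against 44% of all genes) and 6 lower (50%, against 22.6%). Among genes brighter than the 75th percentile 25.3% were higher and 43.1% lower, and the 12 markers lie on both sides of it. In bulk RNA, fewer cells of a type and less RNA per cell cannot be told apart, and the part of these shifts in the chaperone results was not tested.

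Most chaperone transcripts differed little. Without a block, limma called none of the 69 members and none of the 30364 genes (0%) at an adjusted p of 0.05, while 1 member, Dnajb12, and 910 genes had an unadjusted p under that value. With the slide as a block, 3 members were higher in shCM1 (4.35%, against 3.66% of all genes) and 7 were lower (10.1%, against 3.02% of all genes). In either direction these were 10 members (14.5%, against 6.68%). All 10 were brighter than the 75th percentile of their arrays. Among the genes that bright, 3 of 35 members were higher (8.57%, against 2.73% of 8611 genes) and 7 were lower (20%, against 7.21%). The higher members were Hspa5, Hsp90b1 and Hspa13, all of the endoplasmic reticulum. The lower ones were Dnajb12, Dnajc19, Dnajc6, Dnajc15, Hsph1, Dnaja2 and Dnaja1. Without the intensity trend in the blocked fit no gene passed, with 5095 of 30364 genes and 7 of 69 members under an unadjusted p of 0.05. With the trend these were 6873 genes and 17 members. The blocked fit with the trend had 1 residual degree of freedom per gene, against 18.4 prior ones. Its SE and p therefore rest mainly on the variance of genes of like brightness, and little on a gene's own spread. The higher share of all blocked calls was 54.8%, and 38.6% after quantile normalization, 41.0% after cyclic loess, 43.3% after normexp background correction and 36.2% on the authors' deposited table.

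Within both slides, 19 members were higher (27.5%, against 44% of all genes) and 25 were lower (36.2%, against 22.6%). Among genes brighter than the 75th percentile this lean was shared by the array: 6 of 35 members were higher (17.1%, against 25.3% of genes that bright) and 17 were lower (48.6%, against 43.1%). No member differed by 1.5-fold one way on each slide, which 1.8% of all genes did upward and 0.622% downward. The median difference over members was −0.0090, against 0.082 over all genes, and it was −0.063 without shCM1 replicate 1 and −0.078 without shCTL replicate 2. On slides 1 and 2 it was −0.054 and −0.0080 over members, against 0.087 and 0.062 over all genes. For the same bright genes the median was −0.11 over members, against −0.041 over all. In 45 of 69 members the difference was within 0.2 log2 units, and only 3 reached a mean difference of 1.5-fold: Dnajb12, Dnajc19 and the dim Dnajc22.

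**Figure D1:**
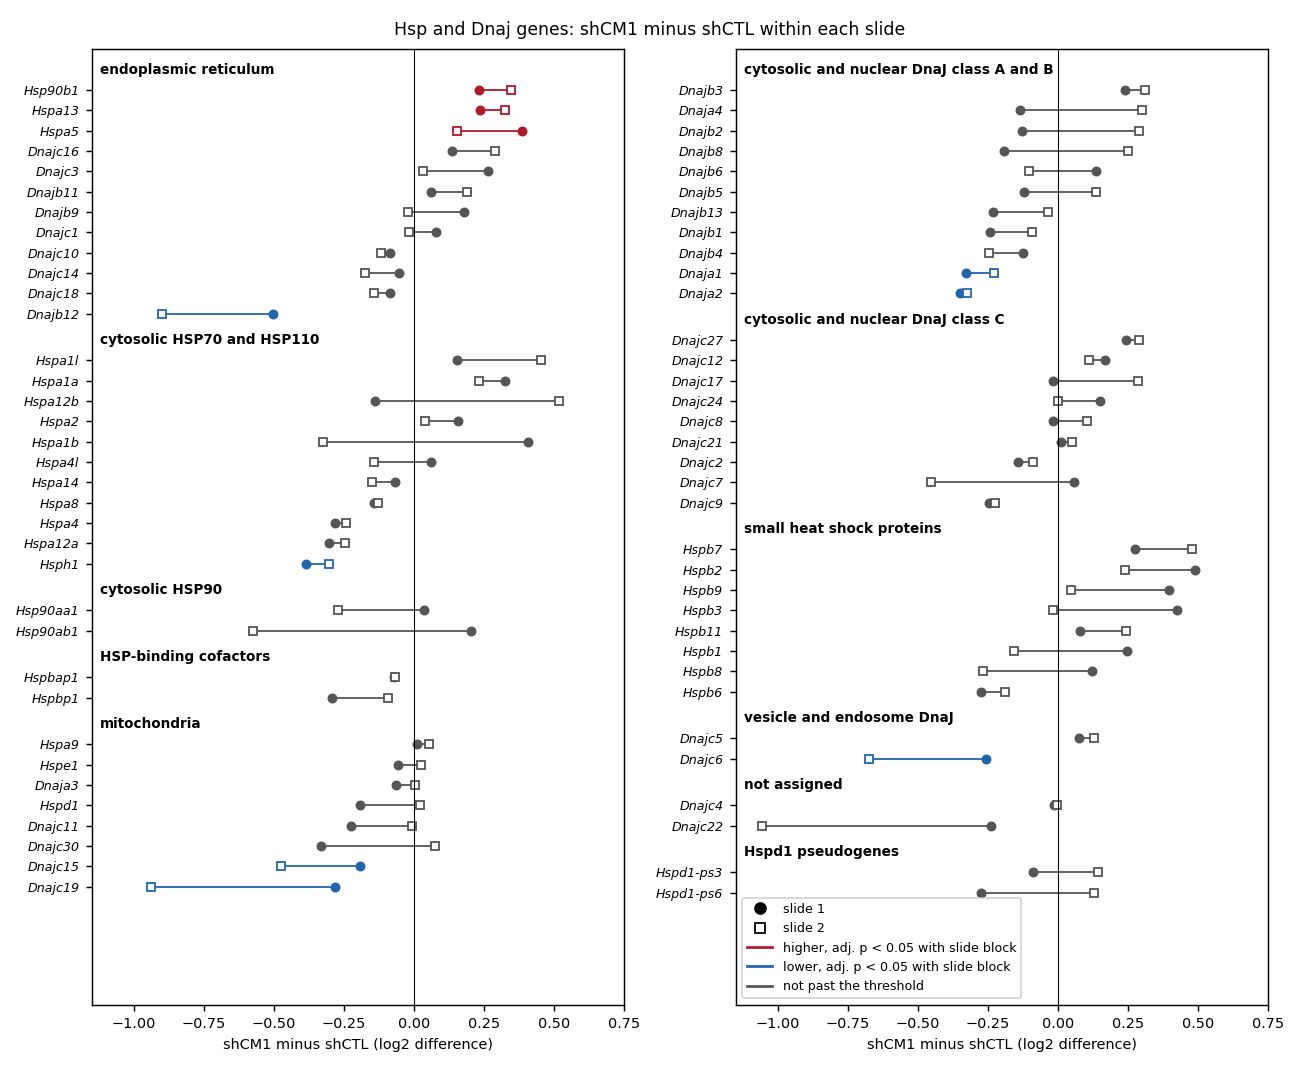
Each row is 1 of the 69 Hsp and Dnaj genes, grouped by compartment; the circle and square give the log2 difference of shCM1 minus shCTL on slides 1 and 2, joined by a line. Red marks the 3 genes higher and blue the 7 lower at an adjusted p under 0.05 with the slide as a block; the red genes lie together in the endoplasmic reticulum group.

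In the endoplasmic reticulum, the main HSP70 and HSP90 chaperones were higher and a membrane DnaJ protein was lower. Of 12 members, 3 passed the blocked fit as higher (25%, against 3.66% of all genes) and 1 as lower (8.33%, against 3.02%). Within both slides 6 were higher (50%, against 44%) and 4 lower (33.3%, against 22.6%). Of genes brighter than the 75th percentile, 25.3% were higher and 43.1% lower. The 12 members lie on both sides of that percentile. Their median difference was 0.10, against 0.082 over all genes and −0.041 over the bright genes. Hspa5 encodes BiP, the lumenal HSP70 and a sensor of unfolded protein. Its levels were 6.38 and 5.99 in shCM1 neurons, against 5.99 and 5.84 in shCTL neurons, with slide 1 and slide 2 differing by 0.39 and 0.15. Each shCM1 array was above its own slide's shCTL array, while the groups touched (difference 0.27, SE 0.078, adjusted p 0.044 with the slide block, limma). Hsp90b1 encodes GRP94, the lumenal HSP90. Its levels were 4.76 and 4.41 in shCM1 neurons, against 4.53 and 4.06 in shCTL neurons (difference 0.29, SE 0.080, adjusted p 0.036 with the block, limma). The groups overlapped across slides and separated within them, and a second Hsp90b1 probe was higher by 0.57 and 0.37 on slides 1 and 2. Hspa13, which encodes a smaller microsomal HSP70, stood at 4.13 and 3.84 in shCM1 neurons, against 3.90 and 3.52 in shCTL neurons (difference 0.28, SE 0.082, adjusted p 0.048 with the block, limma). It was higher in shCM1 on both slides, by 0.23 and 0.32.

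The other lumenal DnaJ genes did not pass. Dnajc3, which encodes an inhibitor of the PERK and PKR kinases, was at 1.90 and 1.73 in shCM1 neurons, against 1.64 and 1.69 in shCTL neurons (difference 0.15). Dnajb9, a known target of the unfolded protein response, differed by 0.18 on slide 1 and −0.021 on slide 2, so that the slides did not share a direction. Dnajb11, the ERdj3 co-chaperone of BiP, differed by 0.061 and 0.19, and Dnajc10, a reductase of the lumen, by −0.087 and −0.12. Dnajb12 encodes a DnaJ protein of the endoplasmic reticulum membrane that, in human cells, recruits cytosolic HSPA8 for degradation of membrane proteins. It had 1.35 and 1.09 in shCM1 neurons, against 1.85 and 1.99 in shCTL neurons. No shCM1 array reached either shCTL array, and shCM1 kept 61.5% of the shCTL signal (difference −0.70, SE 0.10, adjusted p 0.00029 with the block, limma). A second Dnajb12 probe was lower by −0.26 and −0.81 on slides 1 and 2.

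Other folding and stress genes of this compartment, from a list of 18 of which 16 were measured, included 11 that were higher (68.8%, against 44% of all genes) and 1 that was lower (6.25%, against 22.6%) within both slides. With the block 2 passed as higher (12.5%, against 3.66%) and none as lower, and the median difference was 0.19, against 0.082 over all genes. For genes brighter than the 75th percentile, 25.3% were higher and 43.1% lower within both slides, with a median of −0.041. The pair that passed was Sil1 and Pdia3. Sil1 encodes a nucleotide exchange factor of HSPA5 and stood at −1.90 and −1.92 in shCM1 neurons, against −2.41 and −2.85 in shCTL neurons (difference 0.72, adjusted p 0.0042 with the block, limma, and 0.060 with the block on the authors' deposited table). Pdia3, a disulfide isomerase, stood at 3.72 and 3.46 in shCM1 neurons, against 3.33 and 3.06 in shCTL neurons (difference 0.39, adjusted p 0.0074 with the block, limma). Each was higher on both slides, and Pdia3 was 0.26 without shCM1 replicate 1 and also without shCTL replicate 2. Hyou1, the large HSP110-like chaperone of the lumen, differed by only −0.011 and Ddit3, which encodes the stress factor CHOP, by 0.40 (adjusted p 0.069 with the block, limma).

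**Figure D2:**
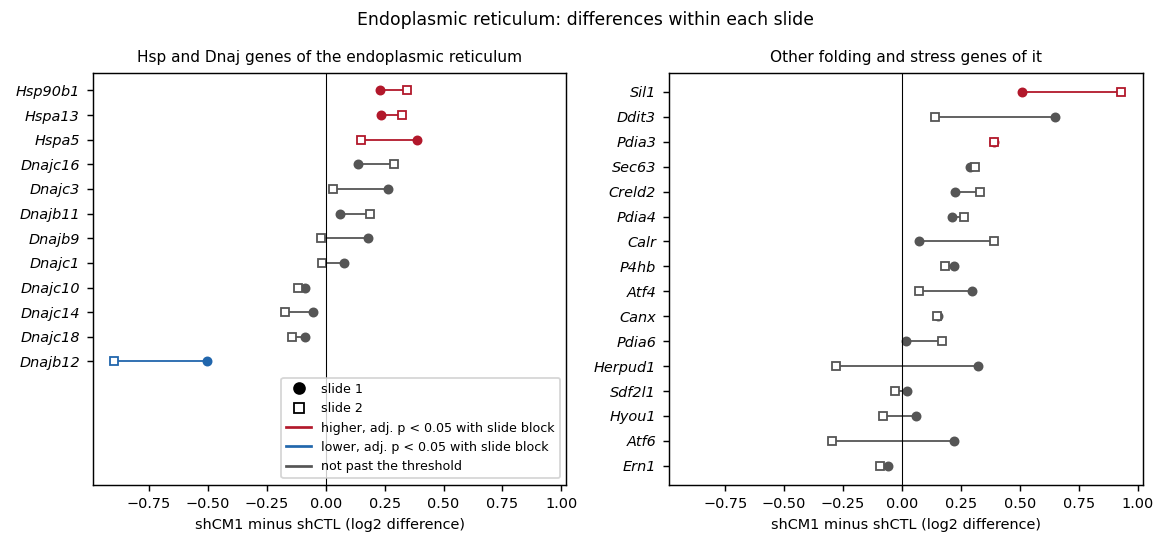
Log2 differences of shCM1 minus shCTL on slide 1 (circle) and slide 2 (square) for 12 Hsp and Dnaj genes of the endoplasmic reticulum (left) and 16 other folding and stress genes of that compartment (right). Hsp90b1, Hspa13, Hspa5, Sil1 and Pdia3 are higher on both slides and pass the blocked fit; Dnajb12 is the one lower gene that does.

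In the cytosolic HSP70 system all 3 genes that passed were lower. Of 11 HSP70 and HSP110 genes, 1 passed as lower (Hsph1, 9.09%, against 3.02% of all genes) and none as higher. Within both slides 3 were higher (27.3%, against 44%) and 5 lower (45.5%, against 22.6%), and the median difference was −0.041. Of 11 DnaJ genes of class A and B, 2 passed as lower (Dnaja1 and Dnaja2, 18.2%, against 3.02%) and none as higher. Of these 11, 1 was higher (9.09%, against 44%) and 5 lower (45.5%, against 22.6%) within both slides. Their median difference was 0.0059, and −0.12 after quantile normalization. Among genes brighter than the 75th percentile 25.3% were higher and 43.1% lower within both slides. Both groups of 11 lie on both sides of that percentile. Hsph1 encodes an HSP110 exchange factor. It was at 0.34 and 0.26 in shCM1 neurons, against 0.73 and 0.56 in shCTL neurons (difference −0.34, SE 0.10, adjusted p 0.049 with the block, limma). Dnaja2, a class A co-chaperone of HSPA8, was at 0.72 and 0.79 in shCM1 neurons, against 1.07 and 1.12 in shCTL neurons (difference −0.34, SE 0.099, adjusted p 0.044 with the block, limma). Dnaja1 was at 4.28 and 4.21 in shCM1 neurons, against 4.61 and 4.44 in shCTL neurons (difference −0.28, SE 0.080, adjusted p 0.042 with the block, limma). Both shCM1 arrays lay below both shCTL arrays for each of the 3 genes, and a second Dnaja1 probe was lower by −0.31 and −0.43.

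The rest of the cytosolic system did not pass. Hspa4, an HSP110 gene, was at 3.83 and 3.78 in shCM1 neurons, against 4.11 and 4.02 in shCTL neurons, just short of the threshold (difference −0.26, adjusted p 0.057 with the block, limma). Hspa12a, a distant HSP70 relative, had a difference of −0.28 (adjusted p 0.068 with the block, limma). Hspa8, the abundant constitutive HSP70, differed by −0.14 and −0.13 on the slides, and Dnajb1, a heat-inducible partner of HSPA1A, by −0.24 and −0.092. A second Dnajb1 probe did not keep that direction, with −0.12 and 0.15. The stress-inducible Hspa1a differed by 0.32 and 0.23, whereas Hspa1b differed by 0.41 and −0.32, in opposite directions. Because the transcripts are nearly identical, each probe may read some RNA of the other gene. On the rn4 coordinates of the array file the probes lie close together, at chr20:3956838-3956897 (Hspa1a) and chr20:3957864-3957923 (Hspa1b). Whether they read 1 transcript or 2 cannot be told apart here. Hspa1a was dim (−3.38 and −3.94 in shCM1 neurons, against −3.70 and −4.17 in shCTL neurons), and its difference was 0.096 after quantile normalization. At the probes used, the cytosolic HSP90 genes also split by slide: Hsp90aa1 differed by 0.034 and −0.27 and Hsp90ab1 by 0.20 and −0.57. The other Hsp90ab1 probes were lower on both slides, by −0.33 and −0.046 and by −0.33 and −0.36. A further Hsp90aa1 probe was lower by −0.27 and −0.26, and the dimmest was higher by 0.12 and 0.063. The remaining Hsp90aa1 probes split as the one used did.

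None of the 8 small heat shock genes passed, with 4 higher (50%, against 44% of all genes) and 1 lower (12.5%, against 22.6%) within both slides. Their median was 0.18, and 0.035 after quantile normalization. Of the 4 higher, Hspb2, Hspb7 and Hspb9 were dim, with mean levels of −4.68, −3.80 and −3.66 in shCTL neurons. The other was Hspb11, which RefSeq names Ift25. Hspb1, which encodes the small chaperone HSP27, differed by 0.25 and −0.16, and Hspb8 by 0.12 and −0.27, so that neither kept a direction. Hspb7 had the smallest unblocked p of the group (difference 0.38), but its difference was 0.21 after quantile normalization, 0.17 after normexp background correction, 0.17 without shCM1 replicate 1, 0.58 without shCM1 replicate 2, 0.68 without shCTL replicate 1 and 0.068 without shCTL replicate 2. None of the 9 nuclear and cytosolic DnaJ genes of class C passed, with a median of 0.043; Dnajc9, a histone chaperone, was lower on both slides by −0.25 and −0.22. Hspbp1, an exchange factor of HSP70, was lower by −0.29 and −0.093. The Hspd1 pseudogenes, which share sequence with Hspd1, differed by 0.026 (Hspd1-ps3) and −0.073 (Hspd1-ps6) and did not pass.

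In the vesicle group, auxilin passed as lower and cysteine string protein did not pass. Dnajc6 stood at 2.98 and 2.24 in shCM1 neurons, against 3.24 and 2.92 in shCTL neurons. Each shCM1 array was below its own slide's shCTL array, and the slide 2 gap of −0.68 was larger than the −0.26 of slide 1 (difference −0.47, SE 0.099, adjusted p 0.0067 with the block, limma). Its 3 other probes were all lower on both slides. Dnajc5 differed by 0.074 and 0.13 and did not pass. Dnajc22, placed in no compartment, was lower by −0.24 and −1.06 and fell short of the threshold (adjusted p 0.054 with the block, limma). It was dim (−3.99 and −3.92 in shCM1 neurons, against −3.75 and −2.86 in shCTL neurons). Its difference was −0.33 after normexp background correction and −0.82 after quantile normalization.

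In mitochondria, 2 of 8 members passed as lower (25%, against 3.02% of all genes) and none as higher. Within both slides 1 was higher (12.5%, against 44%) and 3 were lower (37.5%, against 22.6%), and the median difference was −0.10. Dnajc19 encodes a DnaJ protein of the inner-membrane import motor and Dnajc15 a related inner-membrane protein. Dnajc19 was at 3.20 and 2.16 in shCM1 neurons, against 3.48 and 3.10 in shCTL neurons (difference −0.61, SE 0.11, adjusted p 0.0024 with the block, limma). The slide 2 difference was −0.94 and that of slide 1 −0.28. Dnajc15 was at 3.08 and 2.58 in shCM1 neurons, against 3.28 and 3.06 in shCTL neurons (difference −0.33, SE 0.092, adjusted p 0.032 with the block, limma). The chaperonin pair did not pass: Hspd1 differed by −0.19 and 0.022 and Hspe1 by −0.057 and 0.023. Hspa9, the mitochondrial HSP70, differed by 0.010 and 0.053 and did not pass either. Of 9 other mitochondrial quality control genes, 1 passed as lower, Grpel1 (11.1%, against 3.02% of all genes). Within both slides 0 of the 9 were higher (against 44%) and 4 lower (44.4%, against 22.6%). Among genes brighter than the 75th percentile 25.3% were higher and 43.1% lower, and both mitochondrial lists lie on both sides of it. Grpel1 encodes the exchange factor of HSPA9 and was at 2.21 and 2.08 in shCM1 neurons, against 2.49 and 2.53 in shCTL neurons (adjusted p 0.021 with the block, limma). The Grpel1 call was lost with the block after quantile normalization and cyclic loess (adjusted p 0.10 in each, limma) and on the authors' deposited table (adjusted p 0.12).

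Dnajc19 is read by 2 probes that do not behave alike, so their sequences are shown; the first is the one used and maps to chr2:120391909-120391968 on the rn4 coordinates of the array file, on the minus strand.
Dnajc19 probe used: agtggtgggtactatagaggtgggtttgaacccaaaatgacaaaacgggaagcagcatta
Dnajc19 second probe: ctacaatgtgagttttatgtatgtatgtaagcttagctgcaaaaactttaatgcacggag
The second probe, which the array file leaves unmapped, was higher in shCM1 by 0.61 and 0.034 on slides 1 and 2. Of 25 members with several probes, 18 had all probes on the same side and 7 did not.

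**Figure D3:**
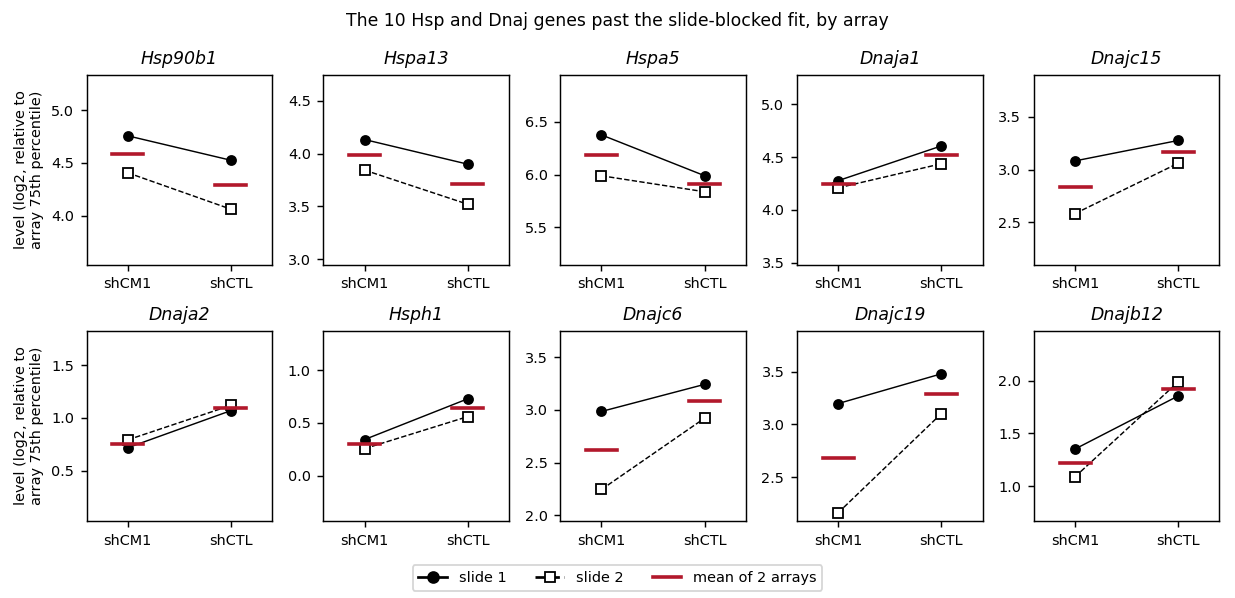
Levels of the 10 members past the blocked fit, as log2 processed signal relative to each array's 75th percentile; shCM1 is left of shCTL, lines join arrays of a slide and red bars are means of 2 arrays. The 3 upper left genes are above shCTL on each slide, and the other 7 below it.

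Of the other lists, none of 20 heat shock factors and cytosolic co-chaperones passed. Within both slides 6 were higher (30%, against 44% of all genes) and 10 lower (50%, against 22.6%), with a median of −0.045, and 0.024 after quantile normalization. None of 8 subunits of the TRiC chaperonin passed either, with 0 higher and 4 lower (50%, against 22.6%) within both slides. Their median was −0.12, and −0.062 after quantile normalization. All 8 were brighter than the 75th percentile, as were most of the 20. Among genes that bright 25.3% were higher and 43.1% lower within both slides. St13, which encodes a co-chaperone of HSP70, differed by −0.19 and Bag1, an exchange factor, by 0.19. Cct2 and Cct3 each differed by −0.17.

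The slide 1 and slide 2 differences of the 69 members had a Pearson correlation of 0.43, and those of all genes 0.36. These are descriptions over genes that share arrays, and they carry no test. Leaving out 1 array breaks a slide pair and moved 6 of the 10 called members by over 1.5 times. Hspa5 was 0.075 without shCM1 replicate 1 and 0.46 without shCM1 replicate 2. Hsp90b1 was 0.11 without shCM1 replicate 1, 0.46 without shCM1 replicate 2, 0.52 without shCTL replicate 1 and 0.056 without shCTL replicate 2. Hspa13 was 0.13, 0.42, 0.47 and 0.088 in the same order. Dnajc19 was −0.093 without shCM1 replicate 2 and −1.13 without shCM1 replicate 1. Dnajc15 was −0.086 and −0.58 and Dnajc6 −0.096 and −0.84 in that order, and Dnajc6 was −0.31 without shCTL replicate 1. All 10 kept their direction in each of the 17 alternatives run.

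**Figure D4:**
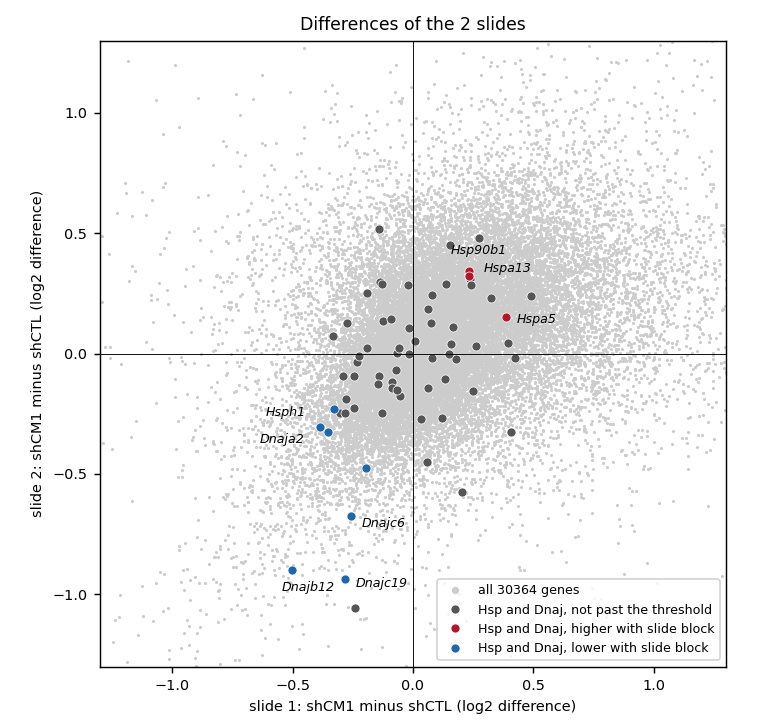
Each point is a gene: the shCM1 minus shCTL log2 difference on slide 1 (x) against slide 2 (y), grey for all 30364 genes (636 lie outside the axes) and dark or coloured for the 69 members. Red genes pass as higher and blue as lower with the slide block; Dnajb12 and Dnajc19 lie farthest down on slide 2 among the blue ones.

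Promoter elements were set beside the differences of the members. RefSeq held a 300-base promoter for 53 of 69 members. The CCAAT, 9 bases, CCACG element was found in 3 of these (5.66%), against 21 of 27457 promoters in the table (0.0765%): Hspa5, Hsp90b1 and Dnajc3, which were higher on both slides by a mean of 0.27, 0.29 and 0.15. Of all genes 44% were higher within both slides. The element was found in 3 of 12 promoters of endoplasmic reticulum members. Hspa13, which passed as higher, had no match, and Dnajc3, which had one, did not pass. At least 2 inverted units (GAANNTTC or TTCNNGAA on either strand) occurred in 15 (28.3%), against 15.4% of all promoters. These 15 members went both ways: 3 were higher and 6 lower on both slides. Among all genes 44% were higher and 22.6% lower. The 15 had a median of −0.074 and a range from −0.34 (Hsph1) to 0.26 (Dnajc27). Runs of 3 units, which contain such pairs, occurred in 5 (9.43%), against 0.736%: Dnaja1, Hspa8, Hspd1, Hspe1 and Hsph1. These 5 had a median difference of −0.14, ranged from −0.34 to −0.017, and 3 of the 5 were lower on both slides. All 5 were brighter than the 75th percentile. Among genes that bright 43.1% were lower within both slides, and the median was −0.041. The differences of Hspe1 and Hspd1 turned to 0.077 and 0.010 after cyclic loess. Those of Hspa8, Dnaja1 and Hsph1 were then −0.030, −0.20 and −0.33. Hspd1 and Hspe1 lie head to head and share the stretch printed for Hspe1. The 35 members with neither element had a median of 0.029. A match is a description of letters in a window and not a bound site.

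**Figure D5:**
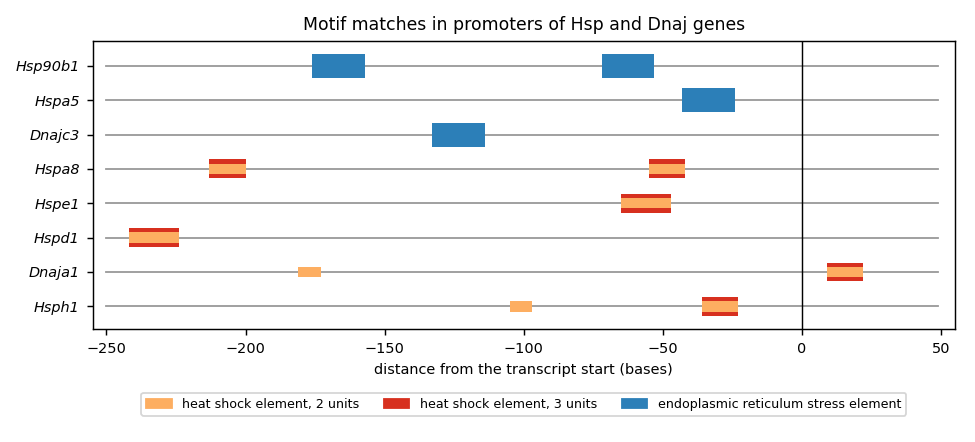
Positions of element matches relative to the transcript start (0) in the promoters of 8 members. Blue boxes are the CCAAT and CCACG element, found only in the top 3 of the genes drawn (Hsp90b1, Hspa5, Dnajc3), and red boxes with an orange core are runs of 3 units in the other 5.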

How the data were processed

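The authors deposited 1 scanner file per array, holding linear spot intensity, and a value table. Per the file headers, the scanner output came from Feature Extraction (Agilent), version 10.7.3.1. The table's intensity scale is not stated, and its values follow the log2 scanner values of their own arrays with a correlation of 0.9998 or more. The processed signal was used after control spots and outlier spots were left out, averaged over spots of a probe, put on a log2 scale and set against the 75th percentile of each array (596 and 744 in shCM1, 652 and 755 in shCTL, in deposited intensity units). A gene is a gene name in the array file. The number of arrays limits the precision: 2 against 2 cannot give an exact permutation p below 0.33.

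Limma 3.58.1 (R 4.3.3; lmFit, then eBayes letting the prior variance follow intensity) was fitted over all 30364 genes with Benjamini-Hochberg adjustment, without a block as the main setting. Slide was a block in an alternative, since each slide holds 1 array of each group: deviations of same-numbered arrays correlated at 0.71, and the leading principal component (65.2% of variance) separated the slides. Alternatives changed the normalization, background, dim-probe filter and probe choice, and left out each array. Genes named were Cmtr1, a fixed set of chaperones, every member past a threshold, the member of smallest p in each compartment and the leading genes of each list. Members and lists were chosen with earlier results of these data known. RefSeq accessions matched 61 members and symbols the other 8. Markers of neurons, microglia, astrocytes, oligodendrocyte lineage, endothelium and fibroblasts were summed per array; the last 4 gave 133 and 137, 45.6 and 57.9, 1.15 and 1.30, and 11.7 and 16.8 in shCM1 arrays, against 123 and 137, 50.8 and 59.2, 0.80 and 1.22, and 12.1 and 15.3 in shCTL arrays. Listed genes with no kept probe under that name were not analysed here.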

Additional observations from a re-analysis of the deposited data

How the results depend on the processing

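With the slide as a replicate block, 2027 genes and 10 chaperones passed; the counts were 941 and 6 with quantile normalization (3 chaperones higher and 3 lower, Dnajc22 among them), 917 and 5 with cyclic loess (3 and 2), 1394 and 7 with normexp background correction (1 and 6, Hspa12a among them) and 687 and 4 with the authors' value table (3 and 1). In these blocked fits Cmtr1 passed with −1.85, −1.97, −1.97, −1.22 and −1.98. Hspa5 and Dnajb12 passed in all 5, Hsp90b1, Hspa13 and Dnajc19 in 4, Dnaja1, Dnaja2 and Dnajc6 in 2, and Hsph1 and Dnajc15 only in the first. Some small differences changed sign, with or without the block. Under quantile normalization, cyclic loess and the authors' value table, Hspa1b was −0.030, −0.012 and −0.029, Hspb1 −0.022, −0.014 and −0.020, Hspe1 0.071, 0.077 and 0.067, and Dnajb2 −0.031, −0.022 and −0.034. Hspa9 was −0.0046 under quantile normalization, −0.0074 under normexp and −0.0043 on the authors' table, Hspd1 was 0.010 under cyclic loess, and Dnajb6 was −0.038 with the mean of all probes. The cause was not tested. Leaving out 1 array at a time, genes called ranged from 0 to 1, chaperones called were 0 throughout, the median difference ranged from −0.078 (without shCTL replicate 2; −0.063 without shCM1 replicate 1) to 0.0095, and Cmtr1 from −2.07 to −1.64. Of the 42 genes followed through every setting, those that changed sign then included none of the 10 called, and ranged as follows: Hspa1a −0.0023 to 0.56, Hspa1b −0.38 to 0.46, Hspa8 −0.38 to 0.11, Hspa9 −0.094 to 0.16, Hsp90aa1 −0.31 to 0.070, Hsp90ab1 −0.38 to 0.0100, Hspa2 −0.15 to 0.35, Hspb1 −0.16 to 0.25, Hspb8 −0.64 to 0.49, Hspd1 −0.20 to 0.028, Hspe1 −0.060 to 0.026, Dnajb2 −0.033 to 0.19, Dnajb6 −0.18 to 0.21, Dnajb9 −0.16 to 0.32, Dnajc5 −0.13 to 0.33, Hspbp1 −0.40 to 0.0095, Hspd1-ps6 −0.36 to 0.22. Without the intensity trend the blocked fit called 0 genes. Its prior degrees of freedom were then 2.93, against 18.4 with the trend, at 1 residual degree of freedom in each. The cause was not tested. Of the other listed genes called with the block, Pdia3 passed in all 5 scalings, Sil1 in 4 (not on the authors' value table) and Grpel1 in 2.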
